A study of Homo sapiens with 6 samples.

Results

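The genes described are 38 members of glycolysis and of the hypoxia response, listed by symbol and matched to the gene IDs of a count table of 61487 IDs. Of these, 37 matched an ID and 1, MXI1P1, did not. The 22 glycolysis genes and the 15 matched hypoxia genes (other targets of the hypoxia-inducible factors, with HIF1A itself) were treated separately. They were measured by sequencing of poly(A) RNA in cells labelled H2170, an established cell line from a human squamous lung carcinoma. The 3 groups of 2 libraries expressed either GFP (Control), a GFP fusion of wild-type ACK1 (WT) or a GFP fusion of ACK1 with an alteration called IDRmut (IDRmut). TNK2 encodes ACK1, a cytoplasmic tyrosine kinase, and the labels do not list which residues IDRmut changes. All groups grew in the same serum-supplemented medium, the labels name no low-oxygen treatment, and each group is a model of overexpression on top of the line's own TNK2. Nothing in the labels says whether the libraries of a group are separate cultures. The p-values below therefore reflect the spread between these libraries, which may be technical.

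Glycolysis splits glucose into pyruvate, which is either oxidised in mitochondria or reduced to lactate and exported, and many tumours run the pathway fast even where oxygen is plentiful. In oxygen, prolyl hydroxylases mark the alpha subunit of the hypoxia-inducible factors (HIF) for destruction. When oxygen is short the subunit persists, pairs with ARNT and binds short DNA elements near genes for glucose uptake, glycolysis, blood vessel growth, acid export and mitochondrial turnover. HIF activity is therefore set mostly by protein stability, and the RNA level of HIF1A is not a measure of it.

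Library totals ran from 19128111 to 33540998 counts, the deepest being the second WT library. TNK2 stood at 42.1 ± 1.41 CPM (counts scaled to TMM library sizes; mean ± SD, n = 2) in Control, at 3564 ± 69.8 in WT and at 1609 ± 217 in IDRmut, so the ACK1 transcript itself differed between WT and IDRmut. Squamous markers were present: SOX2 stood at 339, 234 and 294 CPM and KRT14 at 1424, 622 and 940 CPM on average in Control, WT and IDRmut. The squamous markers KRT5 and TP63 were instead highest in IDRmut, with KRT5 at 13.7, 8.31 and 28.9 CPM and TP63 at 23.5, 27.0 and 32.5 CPM. The general epithelial markers EPCAM and CDH1 were near absent, with at most 4 and 3 counts in any library. Their near absence leaves the label of a carcinoma line open to question, although 3 of the 5 epithelial list genes passed the count filter. The identity of the line was not tested. The epithelial list of 5 genes that holds EPCAM and CDH1 summed to 15.98 and 14.95 CPM (Control), 40.3 and 39.5 (WT) and 85.6 and 76.8 (IDRmut), without overlap between groups. Summed leukocyte markers reached at most 0.736 CPM, with CD3E at 0, and erythroid markers at most 0.736 CPM. A fibroblast list of 5 genes summed to between 696 and 969 CPM, nearly all of it COL1A2, and was lowest in the WT libraries. The squamous list of 11 genes summed to between 1373 and 1400 CPM in WT, 1847 and 1985 in IDRmut and 2386 and 2403 in Control. The part of these shifts in the results below was not tested.

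Wild-type ACK1 and IDRmut ACK1 went with different levels of the hypoxia genes. Against Control, 7 of the 15 hypoxia genes fell and 4 rose in WT, where 35.0% of the 16591 genes tested were called (17.4% higher, 17.6% lower) by edgeR's quasi-likelihood test at an adjusted p under 0.05. In IDRmut, where 31.6% of genes were called (15.6% higher, 15.9% lower), 8 hypoxia genes rose and 0 fell. CA9, NDRG1, VEGFA and EGLN3 were lower than Control in WT and higher than Control in IDRmut, and so were the glycolysis genes HK2 and PGK1. How many of all genes tested share this pattern was not counted. Most of the other glycolysis genes called were lower than Control. In all 10 of 22 fell and 0 rose in WT, and 8 fell and 5 rose in IDRmut, with ENO1, SLC2A1 and LDHA lower than Control in both. Both comparisons use the same Control libraries, so their values are set side by side and were not correlated.

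Of the glycolysis genes 45.5% were called in WT and 59.1% in IDRmut, and of the hypoxia genes 73.3% and 53.3%. The median log2 fold change of the glycolysis genes was -0.07 in WT and -0.02 in IDRmut, that of the hypoxia genes was -0.14 and 0.15, and that of all genes was 0.00 in both. For the counts of 0, at an unadjusted p under 0.05 the glycolysis genes higher in WT remained 0, and 1 hypoxia gene, BNIP3, was lower in IDRmut. DESeq2 also called 0 in both cases. All 37 matched genes passed the filter on low counts. The glycolysis count in IDRmut, 13 in all, depended on the Control libraries: 6 were called without Control replicate 1 and 8 without Control replicate 2.

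**Figure D1:**
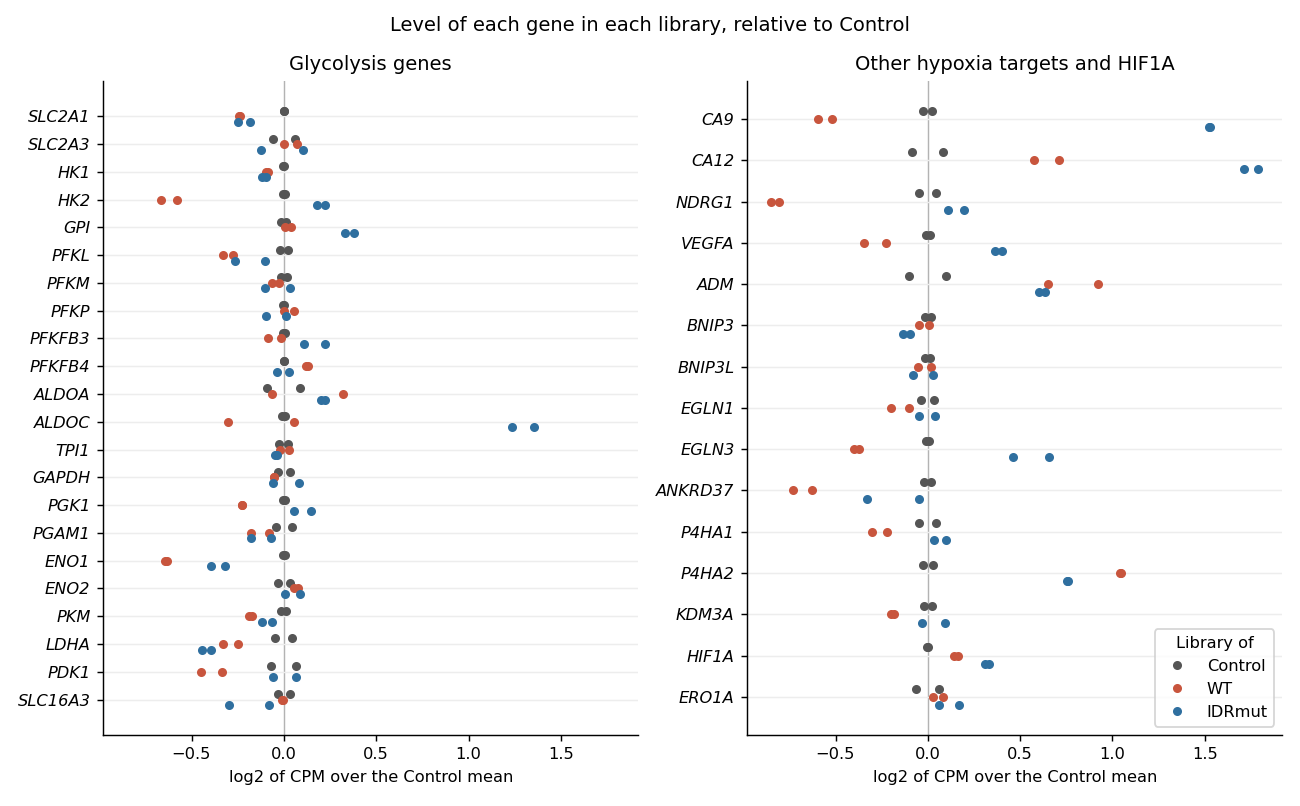
Log2 of each library's CPM over the Control mean for the 22 glycolysis genes (left) and the 15 hypoxia genes (right), with 1 point per library (2 per group). CA9, NDRG1, VEGFA, EGLN3, HK2 and PGK1 have both WT points left of both Control points and both IDRmut points right of them.

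The 2 carbonic anhydrases on the list, membrane enzymes that handle the acid a glycolytic cell produces, gave the greatest changes of the hypoxia genes in IDRmut. CA9, a widely used marker of HIF activity, stood at 5.12 and 4.95 CPM (Control), 3.33 and 3.51 (WT) and 14.5 and 14.5 (IDRmut). The 2 WT libraries lay below and the 2 IDRmut libraries above all others. The log2 fold change of CA9 was -0.55 ± 0.14 in WT (adjusted p = 0.0043) and 1.52 ± 0.11 in IDRmut (adjusted p = 1.2e-08) in edgeR. Each edgeR adjusted p here is from its quasi-likelihood test, corrected with the Benjamini-Hochberg method. After a log2 fold change or log2 difference, ± gives the standard error from the fit over all 6 libraries. CA9 was a low gene, with 68 to 319 counts per library, and 38.5% of its exon bases overlapped the antisense gene ARHGEF39. ARHGEF39 itself had log2 fold changes of 0.65 in WT and 0.31 in IDRmut, and without a known strand setting reads of the pair cannot be told apart. CA12 stood at 4.31 and 4.84 CPM (Control), 6.81 and 7.49 (WT) and 15.8 and 15.01 (IDRmut). It rose in both groups, by 0.66 ± 0.13 in WT (edgeR adjusted p = 5.6e-04) and by 1.75 ± 0.11 in IDRmut (edgeR adjusted p = 4.3e-09) on the log2 scale. The groups did not overlap for either gene. Here and below, non-overlap of 2 libraries with 2 describes the values and is no separate support. Uncalled genes such as EGLN1 in WT against Control show it too, and its share over all genes was not counted. In bulk RNA a lower level in every cell cannot be told apart from fewer cells with the transcript.

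The oxygen sensors differed from one another. EGLN3, a prolyl hydroxylase that HIF itself induces as negative feedback, stood at 20.0 and 20.2 CPM (Control), 15.5 and 15.2 (WT) and 31.7 and 27.6 (IDRmut). WT lay below Control and IDRmut above it without overlap, with log2 fold changes of -0.39 ± 0.08 (edgeR adjusted p = 0.0016) and 0.56 ± 0.08 (edgeR adjusted p = 3.3e-05). EGLN1, the main hydroxylase in oxygenated cells, stood at 23.6 and 24.7 CPM (Control), 21.1 and 22.5 (WT) and 24.8 and 23.4 (IDRmut). It passed the test in neither group (log2 fold changes -0.14 ± 0.07 and 0.00 ± 0.07), and its IDRmut range overlapped Control. HIF1A, the alpha subunit, stood at 231 and 232 CPM (Control), 259 and 255 (WT) and 287 and 291 (IDRmut). Its RNA rose in both groups, by 0.15 ± 0.04 on the log2 scale in WT (edgeR adjusted p = 0.0030) and by 0.32 ± 0.04 in IDRmut (edgeR adjusted p = 2.4e-06). Without WT replicate 1 the WT call was lost, at an edgeR adjusted p of 0.052.

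Secreted factors also differed. VEGFA, which drives vessel growth, stood at 76.8 and 78.1 CPM (Control), 61.0 and 66.1 (WT) and 102 and 99.5 (IDRmut). It fell in WT and rose in IDRmut, with log2 fold changes of -0.28 ± 0.05 and 0.38 ± 0.05, edgeR adjusted p of 3.1e-04 and 1.2e-05, and no overlap between groups. ADM, which encodes the vasodilator adrenomedullin, stood at 4.26 and 3.71 CPM (Control), 7.54 and 6.26 (WT) and 6.19 and 6.05 (IDRmut). Both ACK1 groups lay above Control, with log2 fold changes of 0.76 ± 0.14 (edgeR adjusted p = 4.1e-04) and 0.61 ± 0.15 (edgeR adjusted p = 0.0045). Although the ranges of WT and IDRmut did not overlap, ADM was not called between them (log2 difference 0.15 ± 0.13, edgeR adjusted p = 0.42). The IDRmut call of ADM was lost without Control replicate 2, at an edgeR adjusted p of 0.060.

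NDRG1, a stress-responsive gene induced by hypoxia and by iron loss, had the most negative fold change of the hypoxia genes in WT. It stood at 162 and 172 CPM (Control), 95.7 and 92.8 (WT) and 191 and 180 (IDRmut). The WT libraries were the lowest and the IDRmut libraries the highest, with log2 fold changes of -0.83 ± 0.05 (edgeR adjusted p = 2.9e-10) and 0.15 ± 0.04 (edgeR adjusted p = 0.012). The small rise in IDRmut did not hold without Control replicate 1, where the edgeR adjusted p was 0.20.

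The collagen prolyl hydroxylases moved apart in WT. P4HA1 and P4HA2 encode alternative catalytic subunits of the enzyme that hydroxylates procollagen in the endoplasmic reticulum. P4HA2 stood at 13.9 and 14.5 CPM (Control), 29.3 and 29.2 (WT) and 24.1 and 24.0 (IDRmut). Every ACK1 library lay above Control and the WT libraries were the highest, with log2 fold changes of 1.04 ± 0.07 (edgeR adjusted p = 4.8e-09) and 0.76 ± 0.08 (edgeR adjusted p = 7.5e-07). P4HA1 stood at 135 and 126 CPM (Control), 112 and 106 (WT) and 134 and 140 (IDRmut). It fell in WT, with a log2 fold change of -0.27 ± 0.05 (edgeR adjusted p = 2.3e-04), and did not pass the test in IDRmut (0.07 ± 0.05). Of the chromatin and nuclear members, the histone demethylase gene KDM3A fell in WT (-0.19 ± 0.06, edgeR adjusted p = 0.012), a call lost with DESeq2 and without Control replicate 1, WT replicate 1 or WT replicate 2 (edgeR adjusted p = 0.11, 0.052 and 0.084). ANKRD37, an ankyrin repeat gene induced by HIF, stood at 3.70 and 3.60 CPM (Control), 2.204 and 2.37 (WT) and 3.53 and 2.91 (IDRmut). It fell in WT (-0.66 ± 0.17, edgeR adjusted p = 0.0065), although DESeq2 did not call it (adjusted p = 0.091), and 35.2% of its exon bases overlapped UFSP2, which was not called.

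The members that act in mitochondrial turnover did not pass the test in any comparison. BNIP3 and BNIP3L, receptors that mark mitochondria for autophagy, had log2 fold changes of -0.02 ± 0.04 and -0.02 ± 0.05 in WT. In IDRmut they were -0.12 ± 0.05 and -0.02 ± 0.05. BNIP3 stood at 88.6 and 86.7 CPM (Control), 88.0 and 84.9 (WT) and 79.8 and 81.9 (IDRmut), so the WT libraries overlapped Control and the IDRmut libraries lay slightly below it. Without IDRmut replicate 2 BNIP3 was called lower in IDRmut (edgeR adjusted p = 0.036). ERO1A, an oxidase for disulfide formation in the endoplasmic reticulum, was also uncalled, at 0.06 ± 0.05 in WT and 0.12 ± 0.05 in IDRmut, and was called higher in IDRmut without IDRmut replicate 1 (edgeR adjusted p = 0.014).

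The core of the hypoxia response element was counted in the members' promoters as context for the levels. RefSeq promoters of GRCh38.p14 were in hand for 33 of the 37 members, NDRG1, SLC2A3, BNIP3L and VEGFA being the others. The letters ACGTG and GCGTG were searched on both strands (CACGT and CACGC on the printed strand) in the 250 bases before each start, and a palindrome, CACGTG, counts once per strand. Below, matches are in capitals and the rest in lower case, 5′ to 3′ on the gene's strand. CA9, HK2, ALDOC and EGLN3 are shown because their levels differed between WT and IDRmut, and BNIP3 because it was called in no comparison.
CA9 (chr9:35673678-35673927, plus strand, 1 match): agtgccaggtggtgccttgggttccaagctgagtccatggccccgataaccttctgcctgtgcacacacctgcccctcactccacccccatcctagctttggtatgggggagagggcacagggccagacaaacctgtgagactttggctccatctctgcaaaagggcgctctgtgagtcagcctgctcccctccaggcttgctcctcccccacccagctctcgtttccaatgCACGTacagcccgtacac
HK2 (chr2:74833877-74834126, plus strand, the first of 2 starts, 3 matches): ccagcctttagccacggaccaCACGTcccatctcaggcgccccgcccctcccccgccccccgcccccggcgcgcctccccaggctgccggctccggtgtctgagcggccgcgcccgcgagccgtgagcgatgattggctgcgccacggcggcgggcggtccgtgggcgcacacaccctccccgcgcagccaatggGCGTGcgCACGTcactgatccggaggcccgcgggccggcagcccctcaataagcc
ALDOC (chr17:28576896-28577145, minus strand, 5 matches): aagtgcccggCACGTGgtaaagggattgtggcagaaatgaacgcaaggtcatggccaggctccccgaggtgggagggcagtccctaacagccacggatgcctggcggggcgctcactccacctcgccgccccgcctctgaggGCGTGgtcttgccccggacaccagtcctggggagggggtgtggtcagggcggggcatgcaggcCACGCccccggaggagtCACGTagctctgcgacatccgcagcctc
EGLN3 (chr14:33951075-33951324, minus strand, 0 matches): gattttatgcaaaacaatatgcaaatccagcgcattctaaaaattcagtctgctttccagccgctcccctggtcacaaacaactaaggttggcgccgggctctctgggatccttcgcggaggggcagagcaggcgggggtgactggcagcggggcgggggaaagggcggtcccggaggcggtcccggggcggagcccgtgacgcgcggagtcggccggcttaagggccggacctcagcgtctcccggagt
BNIP3 (chr10:131981924-131982173, minus strand, 6 matches): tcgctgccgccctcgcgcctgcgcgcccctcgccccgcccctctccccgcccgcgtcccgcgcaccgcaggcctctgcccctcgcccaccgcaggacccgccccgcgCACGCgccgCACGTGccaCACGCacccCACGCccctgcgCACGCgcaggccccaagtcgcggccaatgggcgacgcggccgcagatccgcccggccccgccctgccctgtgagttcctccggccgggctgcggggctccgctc

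BNIP3 had 6 matches and no called difference, and the second start of HK2, which is not printed, also had 6. Other uncalled members had fewer, with 1 before EGLN1, PFKFB4 and ENO2 and 2 before ERO1A. The number of matches was not compared between called and uncalled members. CA9 had 1 match, 18 bases before its start, and EGLN3 none in this window. A match was found before 18 of 21 glycolysis genes (85.7%) and 10 of 12 hypoxia genes (83.3%), against 12945 of 27305 genes in the whole promoter table (47.4%). Members with several annotated starts have more chances of a match. Counted per start, the shares were 26 of 47 (55.3%), 11 of 14 (78.6%) and 15172 of 35116 (43.2%). The motif contains CG, and the base composition of the promoters was not compared. A match of these letters is not a binding site, and no binding was measured.

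**Figure D2:**
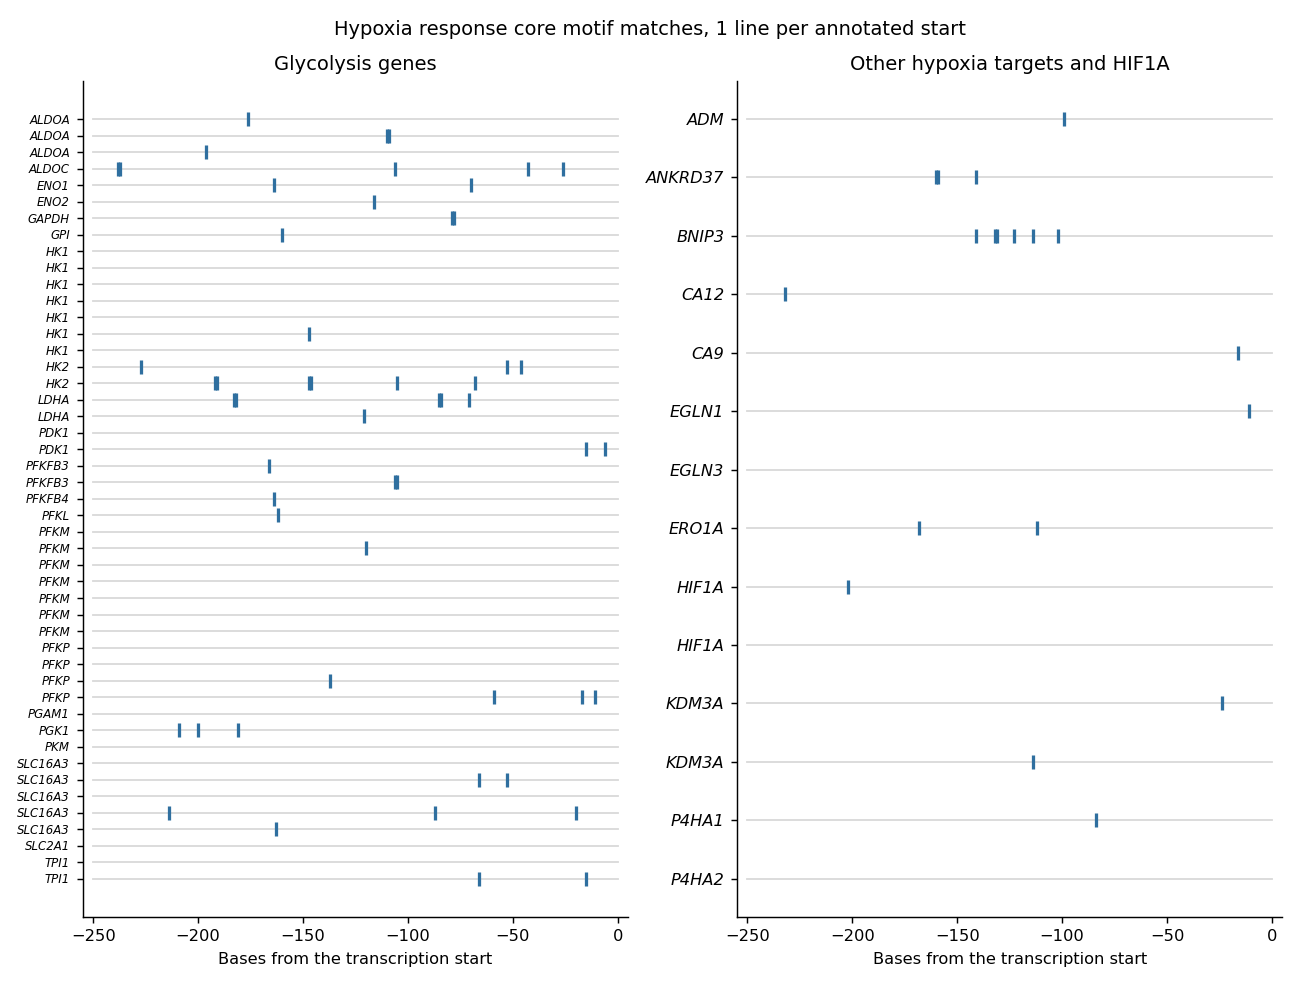
Positions of the hypoxia response core letters in the 250 bases before each annotated start (x axis, bases from the start) for 21 glycolysis genes (left) and 12 hypoxia genes (right), with 1 line per start and 1 tick per match. BNIP3 carries 6 ticks, CA9 1 and EGLN3 none.

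At the entry to glycolysis, the glucose transporter gene SLC2A1 (GLUT1) stood at 663 and 664 CPM (Control), 563 and 561 (WT) and 585 and 558 (IDRmut). All 4 ACK1 libraries lay below Control, with log2 fold changes of -0.24 ± 0.03 in WT (edgeR adjusted p = 3.3e-05) and -0.22 ± 0.03 in IDRmut (edgeR adjusted p = 1.2e-04). The neuronal-type transporter gene SLC2A3 (GLUT3) was far lower per length, at 1.69 CPM per kb of exon in Control against 140 for SLC2A1, and passed the test in neither group. Hexokinases trap glucose as its phosphate. HK2, the inducible isozyme, stood at 55.0 and 55.4 CPM (Control), 34.8 and 36.9 (WT) and 62.5 and 64.4 (IDRmut), with WT lowest and IDRmut highest. Its log2 fold change was -0.62 ± 0.05 in WT (edgeR adjusted p = 1.1e-07) and 0.20 ± 0.05 in IDRmut (edgeR adjusted p = 0.0067). The rise in IDRmut was lost without Control replicate 1 (edgeR adjusted p = 0.066) and with DESeq2 (adjusted p = 0.054). HK1, the housekeeping isozyme, stood at 451 and 453 CPM (Control), 423 and 426 (WT) and 423 and 417 (IDRmut). Its falls were small, at -0.09 ± 0.03 and -0.11 ± 0.03, with edgeR adjusted p of 0.044 and 0.023. Leaving out any 1 Control or WT library ended both calls, with edgeR adjusted p from 0.054 to 0.24. Per exon base, HK2 made up 11.3% ± 0.030 of the hexokinase signal (HK1 and HK2; SD, n = 2) in Control, 8.07% ± 0.27 in WT and 13.6% ± 0.37 in IDRmut. These shares are descriptions without a test, and with longest-transcript lengths they became 7.80%, 5.53% and 9.48%, in the same order.

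In the upper steps, 3 genes rose in IDRmut but were not called in WT. GPI, which isomerises glucose 6-phosphate, stood at 623 and 635 CPM (Control), 646 and 633 (WT) and 818 and 790 (IDRmut), and both IDRmut libraries lay above the rest. Its log2 fold change was 0.35 ± 0.03 in IDRmut (edgeR adjusted p = 4.6e-07) and 0.02 ± 0.03 in WT. PFKFB3 makes fructose 2,6-bisphosphate, the main activator of phosphofructokinase, and rose in IDRmut by 0.17 ± 0.04 as a log2 fold change (edgeR adjusted p = 0.0073), a call lost without Control replicate 1 and without Control replicate 2 (edgeR adjusted p = 0.076 and 0.055). ALDOC, an aldolase best known from brain, stood at 9.79 and 9.90 CPM (Control), 7.98 and 10.2 (WT) and 25.2 and 23.2 (IDRmut). Both IDRmut libraries stood above all others, with a log2 fold change of 1.30 ± 0.10 (edgeR adjusted p = 5.1e-08), and the WT libraries straddled Control (-0.08 ± 0.12). ALDOA, the main aldolase of most tissues, stood at 9.33 and 10.5 CPM (Control), 9.50 and 12.4 (WT) and 11.6 and 11.4 (IDRmut) and passed no test. However, 53.5% of the exon bases of ALDOA overlapped other genes, a readthrough locus among them, which limits its counts and any share among aldolases. Among phosphofructokinases, PFKL stood at 143 and 147 CPM (Control), 115 and 120 (WT) and 135 and 120 (IDRmut) and fell in WT (-0.30 ± 0.05, edgeR adjusted p = 1.4e-04) and in IDRmut (-0.18 ± 0.05, edgeR adjusted p = 0.0099). The IDRmut call was lost without Control replicate 2 and without IDRmut replicate 2 (edgeR adjusted p = 0.094 and 0.069). PFKM stood at 54.5 and 53.4 CPM (Control), 51.6 and 52.9 (WT) and 55.2 and 50.3 (IDRmut) and was not called. PFKP stood at 114 and 115 CPM (Control), 115 and 119 (WT) and 116 and 107 (IDRmut) and was not called either. PFKL made up 34.3% ± 0.48 of the phosphofructokinase signal per exon base in Control, 29.6% ± 0.0026 in WT and 32.0% ± 0.54 in IDRmut.

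In the lower, energy-yielding steps, ENO1 had a fall in WT about as large as that of HK2. This enolase gene stood at 7112 and 7165 CPM (Control), 4574 and 4600 (WT) and 5732 and 5422 (IDRmut). The WT libraries were lowest and IDRmut lay between WT and Control without overlap, with log2 fold changes of -0.64 ± 0.03 (edgeR adjusted p = 9.0e-11) and -0.36 ± 0.03 (edgeR adjusted p = 1.9e-07). The neuronal enolase gene ENO2 stood at 53.3 and 51.0 CPM (Control), 54.3 and 55.1 (WT) and 55.3 and 52.3 (IDRmut) and passed no test. Its share of the enolase signal per exon base was 0.892% in Control, 1.45% in WT and 1.18% in IDRmut. PGK1, the first ATP-forming enzyme, stood at 935 and 944 CPM (Control), 804 and 802 (WT) and 974 and 1042 (IDRmut). It fell in WT (-0.23 ± 0.04, edgeR adjusted p = 9.5e-05), while the rise in IDRmut (0.10 ± 0.04, edgeR adjusted p = 0.039) was lost in 8 of 15 alternatives, among them those without either Control library, either WT library or IDRmut replicate 2 (edgeR adjusted p from 0.078 to 0.22). PKM, the final pyruvate kinase, stood at 5090 and 5183 CPM (Control), 4498 and 4563 (WT) and 4913 and 4729 (IDRmut) and fell in both, at -0.18 ± 0.03 in WT (edgeR adjusted p = 1.9e-04) and -0.09 ± 0.03 in IDRmut (edgeR adjusted p = 0.032). PGAM1 stood at 521 and 490 CPM (Control), 447 and 478 (WT) and 482 and 447 (IDRmut), with falls of -0.13 ± 0.04 and -0.12 ± 0.04 (edgeR adjusted p = 0.033 and 0.044). The IDRmut call of PKM was lost in 8 alternatives, those without any 1 Control or WT library included (edgeR adjusted p from 0.054 to 0.19). Both calls of PGAM1 were lost without Control replicate 1 (edgeR adjusted p = 0.30 and 0.35), the WT call also without WT replicate 1 (0.31) and the IDRmut call without IDRmut replicate 2 (0.17). GAPDH, and TPI1 of the step before it, passed no test. Their log2 fold changes were -0.05 ± 0.04 and 0.00 ± 0.03 in WT and 0.01 ± 0.04 and -0.04 ± 0.03 in IDRmut. Leaving out IDRmut replicate 1 gave GAPDH a call in WT (edgeR adjusted p = 0.038), and leaving out IDRmut replicate 2 gave it a call in IDRmut (0.026).

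At the exit from the pathway, LDHA, which reduces pyruvate to lactate, stood at 46.1 and 43.3 CPM (Control), 35.5 and 37.7 (WT) and 32.9 and 34.0 (IDRmut). Both ACK1 groups lay below Control, IDRmut lowest, with log2 fold changes of -0.28 ± 0.06 (edgeR adjusted p = 0.0011) and -0.42 ± 0.06 (edgeR adjusted p = 5.3e-05). PDK1, a kinase that inhibits pyruvate dehydrogenase, stood at 26.4 and 28.9 CPM (Control), 21.9 and 20.2 (WT) and 26.6 and 28.9 (IDRmut). WT lay below the other groups (-0.40 ± 0.08 against Control, edgeR adjusted p = 5.0e-04) and the IDRmut libraries lay within the Control range (0.01 ± 0.07). SLC16A3, the lactate exporter MCT4, stood at 176 and 168 CPM (Control), 171 and 172 (WT) and 163 and 140 (IDRmut). It fell in IDRmut (-0.19 ± 0.05, edgeR adjusted p = 0.014), and that call was lost without Control replicate 1 and without IDRmut replicate 2 (edgeR adjusted p = 0.14 and 0.12).

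ENO1, GAPDH and PKM held most of the counts of the pathway. Values per kb use all annotated exons of a gene merged, which can be longer than the transcript expressed. Per kb of exon in Control, ENO1 stood at 1353 CPM, GAPDH at 870, PKM at 599 and TPI1 at 234, whereas LDHA stood at 7.19, ALDOA at 2.54 and PDK1 at 1.86. The levels of LDHA and ALDOA are low for a tumour line, and whether the cells or the counting set them was not tested. The 22 genes together held 1.91% ± 0.010 of a library's counts in Control, 1.63% ± 0.0081 in WT and 1.78% ± 0.058 in IDRmut (SD, n = 2). ENO1, PKM and GAPDH made up 72.7% to 76.1% of that sum. Without ENO1 the sums were 1.21%, 1.16% and 1.22%, so the summed level in IDRmut was no longer below Control. The 15 hypoxia genes held 0.0934%, 0.0896% and 0.111% of counts in Control, WT and IDRmut.

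**Figure D3:**
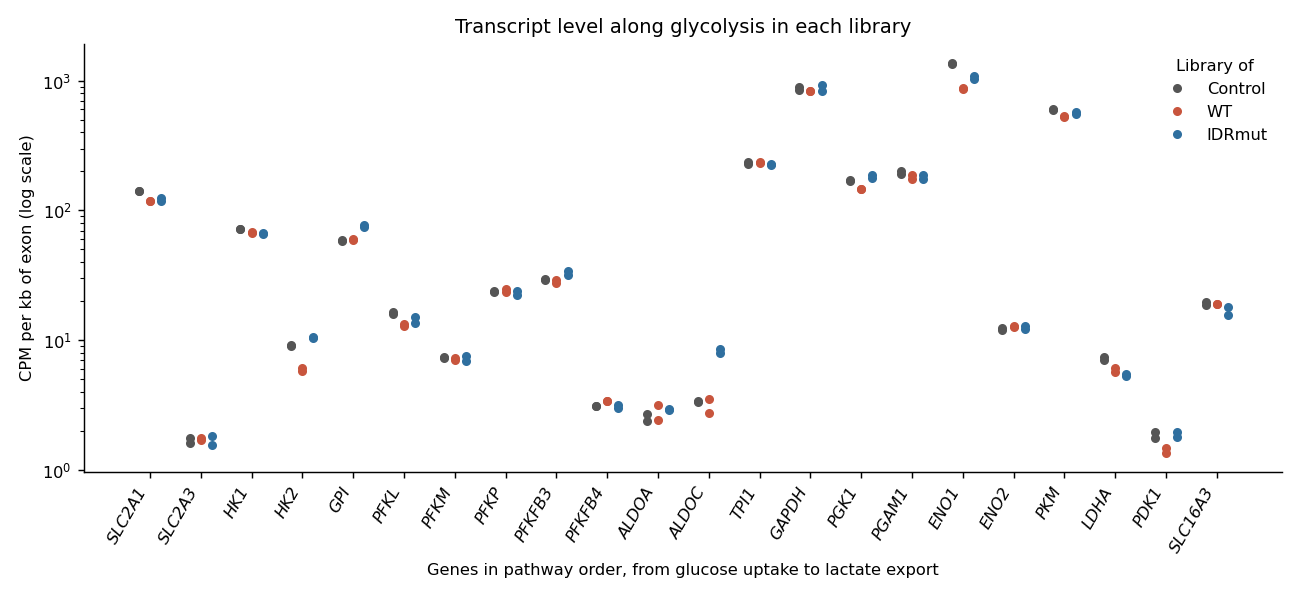
CPM per kb of exon on a log axis for the 22 glycolysis genes in pathway order from glucose uptake to lactate export, with 1 point per library (2 per group). ENO1, GAPDH and PKM are the highest genes, SLC2A3 and PDK1 the lowest, and ALDOC is higher in the IDRmut libraries than in the others.

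The direct comparison of WT with IDRmut asks which genes depend on the form of ACK1 expressed, although TNK2 RNA was also higher in WT (log2 difference 1.15 ± 0.06), and its part in the result was not tested. Of all genes tested, 26.5% were called in this comparison, 14.2% higher and 12.3% lower in WT. Of the hypoxia genes 8 were lower and 1, P4HA2, was higher in WT, and of the glycolysis genes 8 were lower and 1, SLC16A3, was higher. The median log2 difference was -0.23 for the hypoxia genes, -0.03 for the glycolysis genes and 0.00 for all genes.

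CA9 gave the widest gap, with a log2 difference of -2.07 ± 0.11 (edgeR adjusted p = 4.0e-10). CA12, which rose in both groups, was likewise lower in WT (-1.09 ± 0.10, edgeR adjusted p = 2.6e-07). NDRG1 (-0.98 ± 0.04), EGLN3 (-0.95 ± 0.08) and VEGFA (-0.66 ± 0.05) followed, with edgeR adjusted p of 9.4e-11, 9.5e-08 and 2.5e-08. In all 5 genes the libraries of the pair of groups did not overlap. The same held for uncalled members such as PFKL, LDHA and BNIP3, and the share over all genes was not counted. Smaller differences were called for P4HA1 (-0.33), KDM3A (-0.23) and HIF1A (-0.17), all lower in WT, and for P4HA2 (0.28), with edgeR adjusted p of 3.7e-05, 0.0050, 0.0014 and 0.0032. The call of KDM3A was lost without WT replicate 2, at an edgeR adjusted p of 0.056. ANKRD37 missed the threshold, at -0.48 ± 0.17 (edgeR adjusted p = 0.053), and passed it without IDRmut replicate 2 (0.030).

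Among glycolysis genes the widest gaps were those of ALDOC (-1.37 ± 0.10, edgeR adjusted p = 1.9e-08) and HK2 (-0.82 ± 0.05, edgeR adjusted p = 5.2e-09), both lower in WT. PDK1, GPI, PGK1, ENO1, PFKFB3 and PKM were lower in WT too, with log2 differences of -0.41, -0.33, -0.33, -0.28, -0.22 and -0.09. The call of PKM was lost in 8 of 15 alternatives, without any 1 Control or WT library among them (edgeR adjusted p from 0.075 to 0.26). SLC16A3 was higher in WT by 0.18 ± 0.05 (edgeR adjusted p = 0.018), a call lost without WT replicate 1, without WT replicate 2 and without IDRmut replicate 2 (edgeR adjusted p = 0.054, 0.092 and 0.17). PFKL and GAPDH were called between the forms only without IDRmut replicate 2 or under some settings added later. PFKP was called between the forms only without IDRmut replicate 1. SLC2A1 (-0.02 ± 0.03) and LDHA (0.13 ± 0.06), which fell in both groups against Control, were not called between WT and IDRmut, so no difference between the forms was detected for either (edgeR adjusted p = 0.66 and 0.11). LDHA was called higher in WT under the GC and length correction alone.

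**Figure D4:**
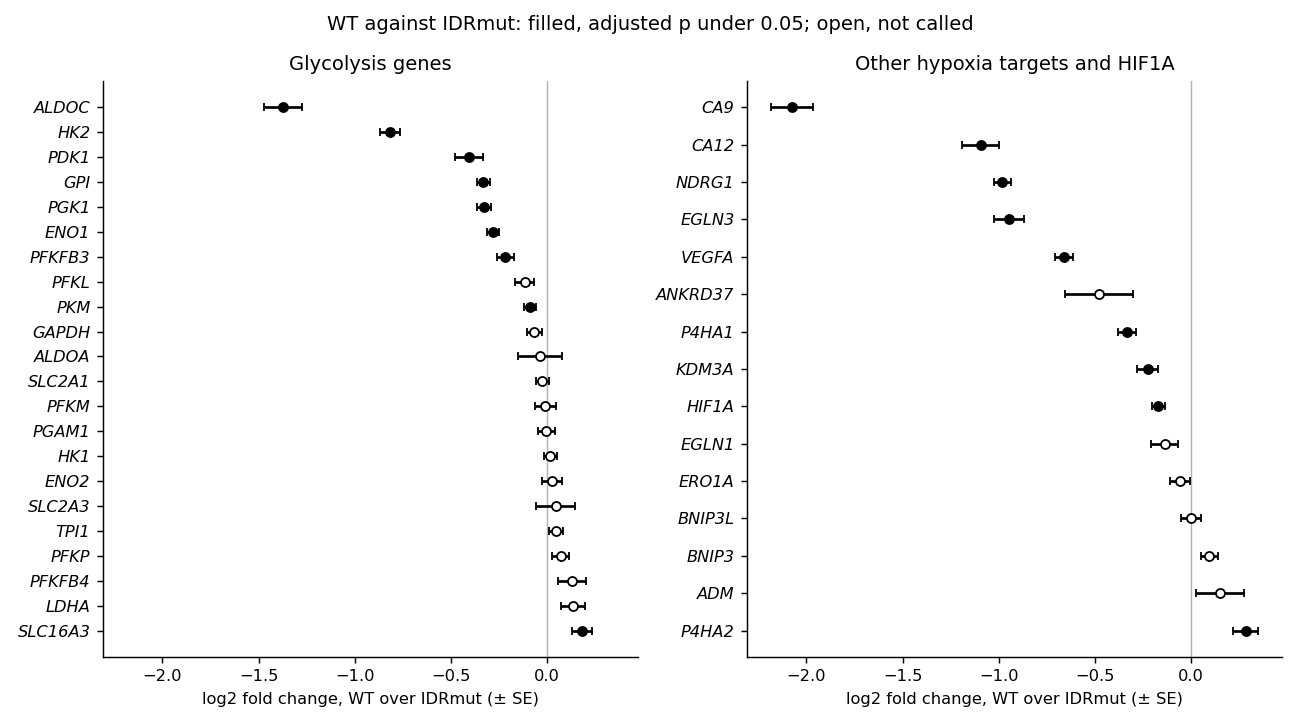
Log2 fold change of WT over IDRmut (x axis; bars are ± 1 SE from the fit over 6 libraries) for the 22 glycolysis genes (left) and the 15 hypoxia genes (right), ordered by value; filled points have an adjusted p under 0.05. CA9, at -2.07, and ALDOC, at -1.37, lie farthest left, and only SLC16A3 and P4HA2 are filled on the right of 0.

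For the counts of members that follow, the matching shares over all genes were not taken. In all, 12 members were called in none of the 3 comparisons: SLC2A3, PFKM, PFKP, PFKFB4, ALDOA, TPI1, GAPDH, ENO2, BNIP3, BNIP3L, EGLN1 and ERO1A. Their log2 fold changes lay between -0.14 (EGLN1) and 0.21 (ALDOA), and ALDOA was called in WT without WT replicate 1 (edgeR adjusted p = 0.047). Of the calls made, 16 of 21 in WT, 11 of 21 in IDRmut and 15 of 18 between the forms held in all 15 alternative analyses, and no called direction reversed.

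Other genes of the same pathways were read from lists of their own. Of 40 further HIF targets tested, 13 rose and 7 fell in WT, and 18 rose and 7 fell in IDRmut. Between the forms 7 were higher and 16 lower in WT. Over the 3 comparisons in that order, 50.0%, 62.5% and 57.5% of these targets were called, against 35.0%, 31.6% and 26.5% of all genes. Their median log2 fold changes were -0.03, 0.20 and -0.14. LOX, which crosslinks collagen, stood at 27.9 and 26.1 CPM (Control), 22.6 and 25.3 (WT) and 54.3 and 57.7 (IDRmut), lower in WT than in IDRmut by a log2 difference of -1.22 ± 0.06 (edgeR adjusted p = 4.8e-10). HMOX1, the heme oxygenase, rose by 1.56 in WT and 0.40 in IDRmut on the log2 scale, while VLDLR and IGFBP3 had 1.72 and 1.43 in IDRmut and 1.41 and 0.33 in WT. The further HIF targets were thus called in both directions in each comparison.

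Of 14 tested genes of the HIF machinery, 21.4%, 28.6% and 21.4% were called in the 3 comparisons. Over all genes the shares were 35.0%, 31.6% and 26.5%. With only 3, 4 and 3 genes called, whether the list's shares differ from these was not tested. The calls were 2 higher and 1 lower in WT, 1 higher and 3 lower in IDRmut, and 2 higher and 1 lower in WT against IDRmut. EPAS1, which encodes HIF-2 alpha, had log2 fold changes of 0.14 in WT and 0.17 in IDRmut, and the partner gene ARNT2 had -0.09 and -0.33. ELOC, a subunit of the VHL ubiquitin ligase, had 0.20 in WT, and the ubiquitin ligase gene SIAH2 had -0.22 in WT against IDRmut.

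Of 18 further glycolysis genes tested, 5 rose and 4 fell in WT, and 4 rose and 4 fell in IDRmut. In WT against IDRmut 2 were higher and 5 lower. The called shares were 50.0%, 44.4% and 38.9%, against 35.0%, 31.6% and 26.5% of all genes. SLC16A1, the lactate transporter MCT1, stood at 348 and 348 CPM (Control), 291 and 287 (WT) and 385 and 405 (IDRmut), low in WT and high in IDRmut without overlap, with a log2 difference of -0.45 ± 0.04 (edgeR adjusted p = 7.1e-08). The glucose transporter genes SLC2A6, SLC2A10 and SLC2A12 had log2 fold changes of 0.95, 1.89 and 0.91 in WT and of -0.04, 2.71 and 1.16 in IDRmut. Of 16 genes for the transport and further use of pyruvate, 5 rose and 4 fell in WT, and 6 rose and 2 fell in IDRmut. In WT against IDRmut 0 were higher and 4 lower (edgeR, and at an unadjusted p under 0.05, 0 and 5). Here the called shares were 56.25%, 50.0% and 25.0%, the last of them near the 26.5% of all genes. PC, which carboxylates pyruvate, stood at 59.0 and 59.5 CPM (Control), 38.7 and 36.5 (WT) and 74.1 and 68.0 (IDRmut), with -0.66 ± 0.06 in WT (edgeR adjusted p = 9.4e-08) and 0.26 ± 0.05 in IDRmut (edgeR adjusted p = 0.0014). PDK3, a sister kinase of PDK1, had log2 fold changes of -0.47 in WT and -0.31 in IDRmut. The phosphatase gene PDP1 had 0.46 in WT and 0.43 in IDRmut and was not called between the forms (0.03). The phosphatase gene PDPR had -0.17 in WT, 0.03 in IDRmut and -0.19 between the forms.

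Of 16 genes of the pentose phosphate branch and of glycogen, 2 rose and 6 fell in WT, and 1 rose and 7 fell in IDRmut. In WT against IDRmut 6 were higher and 5 lower. The called shares were 50.0%, 50.0% and 68.75%, against 35.0%, 31.6% and 26.5% of all genes. PGD, of the oxidative part of the branch, had log2 fold changes of -0.18 in WT and -0.26 in IDRmut, and the glycogen genes PYGB, PPP1R3C and GBE1 had -0.44, -0.91 and -0.09 in WT and -0.28, -0.46 and 0.21 in IDRmut. TXNIP, an arrestin-family gene induced by glucose products that restrains glucose uptake, stood at 14.4 and 15.7 CPM (Control), 8.38 and 8.19 (WT) and 34.8 and 34.5 (IDRmut). It fell in WT, with a log2 fold change of -0.86 ± 0.09 (edgeR adjusted p = 9.3e-07), and rose in IDRmut, with 1.20 ± 0.07 (edgeR adjusted p = 2.4e-09). Its relative ARRDC4 fell in WT (-0.72 ± 0.15, edgeR adjusted p = 0.0013) and was not called in IDRmut (0.29 ± 0.14).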

How the data were processed

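The authors deposited raw counts per gene ID for 6 libraries, without normalization. HISAT2 2.2.1, SAMtools 1.14, featureCounts 2.0.1 and the build GRCh38 are listed in the submitters' processing notes. The gene annotation's release, how strand was set and how multiply matching reads were treated were not given in the sources used here. Of 61487 IDs, 61369 took a current symbol and 105 a symbol found only in GENCODE release 29, which also gave exon lengths and overlaps and may not be the authors' release. From the counts, edgeR 4.0.16 in R 4.3.3 kept 16591 genes (filterByExpr, minimum count 10, minimum total 15), scaled libraries by TMM and fitted group means over all 6 libraries. Contrasts used the quasi-likelihood test with Benjamini-Hochberg adjustment over those genes and a threshold of 0.05. The code was tested on simulated data.

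Depths of 19128111 to 33540998 counts limit precision most for low genes such as CA9, and counting error does not cover PCR duplicates. The members and lists were chosen with earlier results of these data known. Genes given in full were those with the 2 largest and 2 smallest called fold changes of each list and comparison, a fixed set of key genes and the isozyme families, and in other lists the 2 called genes with the smallest adjusted p. Some genes that this rule names are not reported here. Alternatives were upper-quartile scaling, DESeq2 size factors, DESeq2 1.42.0 itself, no count filter, a replicate block, only the groups compared, pseudogene counts added to their gene, and each library left out. A GC and length correction, a crossed block and longest-transcript lengths were chosen after seeing the data. Figures and tables were made with Python 3.11.15 and matplotlib 3.10.9.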

Additional observations from a re-analysis of the deposited data

Results flagged for a closer look

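In 6 genes the effects against Control had opposite signs in the 2 ACK1 groups, both were called, and the difference itself was tested as WT against IDRmut in the edgeR fit. HK2 differed by -0.82 on the log2 scale, with a range of -0.87 to -0.78 over the alternatives. PGK1 differed by -0.33 (-0.38 to -0.28). CA9 differed by -2.07 (-2.12 to -2.04), NDRG1 by -0.98 (-1.03 to -0.94), VEGFA by -0.66 (-0.73 to -0.61) and EGLN3 by -0.95 (-1.05 to -0.85). The 6 genes were picked by these same calls, so a called difference between the forms is no separate support. The share of all genes tested with opposite calls of this kind was not counted. WT was called lower than IDRmut for each of these 6 genes in all 15 alternatives. The rise in IDRmut against Control was lost in 8 alternatives for PGK1, in 2 for HK2 and in 1 for NDRG1. For CA9, VEGFA and EGLN3 it held in all 15. The effects against Control share the Control libraries.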

How the results depend on the processing

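No called direction reversed. DESeq2 called fewer genes than edgeR: 3649 in WT against Control, 3290 in IDRmut against Control and 2534 in WT against IDRmut, against 5807, 5237 and 4396. Leaving out 1 library moved the 3 counts between 3974 and 7028, between 3451 and 5522 (lowest without Control replicate 1) and between 2590 and 4761 (lowest without WT replicate 2). A group left with 1 library is assumed to vary like the others. The glycolysis genes called ranged from 8 to 11, 6 to 13 and 7 to 10 over those analyses, and the hypoxia genes from 9 to 11, 7 to 9 and 8 to 10. Replicate numbers are shared across groups, but same-numbered libraries did not deviate together (correlations -0.02, -0.04 and -0.13 over 10908 genes), so they were not taken as pairs. With the replicate number as a block, 5440, 4836 and 3966 genes were called, with 8, 10 and 8 glycolysis and 11, 8 and 9 hypoxia genes among them. With the IDRmut numbers crossed, chosen after seeing the data, the counts were 6028, 5478 and 4587. Depth limits the genes with few counts, CA9 and ANKRD37 among them.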
